A study of Mus musculus with 7 samples.

Results

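Ephrins, Slits and netrins are guidance cues that tell growing axons, migrating cells and sprouting vessels where to go, and Eph, Robo, Unc5, Dcc and neogenin proteins are the receptors that read them. The genes of these ligand and receptor families were taken by symbol, as all ephrins (Efna and Efnb), Eph receptors (Epha and Ephb), Slits, Robos, netrins (Ntn) and Unc5 receptors plus Dcc and Neo1, and 37 of the 22180 genes measured belonged to them. They comprised 14 ligands and 23 receptors. Ntn5 was not analysed here because its probe sets list several genes, and Ephb2 was not analysed either. The samples came from C57Bl/6 mice. One group was the blastema, the mass of cells that forms on the stump of an amputated digit tip, collected 2 weeks after amputation (n = 3 arrays). The other was the uninjured digit (n = 4 arrays). The labels call the samples biological replicates and name no transgene or drug. The sources used here give neither the age of the mice nor the number of digits behind each sample. The study concerns Schwann cell precursors of the nerve in digit tip regeneration, and the comparison asks here which guidance genes differ between the regenerating and the intact digit.

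In these families, membrane contact and secreted cues work side by side. Ephrins are held on the cell surface, ephrin-A proteins by a lipid anchor and ephrin-B proteins by a transmembrane segment, and they signal through Eph receptor tyrosine kinases on the touching cell while also signalling back into their own cell. Slits are secreted and mostly repel cells that carry Robo receptors. Netrins attract through Dcc and neogenin and repel through Unc5 receptors. In limbs these cues are known from nerve and vessel routing, bone remodelling and epithelial boundaries.

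The values are log2 levels from 1-colour arrays, so a difference of 1 is a 2-fold change, and levels of different genes are not set against each other. Array medians lay between 5.53 and 5.58. Arrays have no read depth, and the number of arrays limits the precision. Both groups gave strong signal for the epidermal keratins Krt14 (11.70 in blastema, 11.78 in uninjured digit) and Krt10 (12.67 and 12.85), and the distal limb gene Hoxd13 lay at 6.98 in blastema and 5.97 in uninjured digit. The second axis of variance, with 14.3% of it, set blastema array 1 (15.8) and uninjured array 1 (24.8) apart from the other arrays (-13.6 to -3.18). Because the table has no detection calls, the 95th percentile of 1105 olfactory receptor genes, 5.52, was taken as a rough background line. In bulk tissue, fewer cells of a type and less RNA per cell cannot be told apart, and this holds for every difference given here.

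A few receptors and 1 Slit carried the differences, while no ephrin or netrin ligand passed the test in the main fit on the deposited scale. Epha3, an ephrin-A receptor, was 3.09-fold higher in the blastema, and the netrin receptor Unc5d 1.15-fold higher, with uninjured arrays counted at the background line. Every uninjured array lay under that line for these genes. Both values depend on that rough line and carry no sampling error, so they are not firm lower limits. The Slit gene Slit2 and its receptor Robo2 rose by 1.35-fold and 1.40-fold, and the Eph receptors Ephb6 and Epha4 fell, to levels 1.82-fold and 1.51-fold lower than in uninjured digit. By limma with Benjamini-Hochberg adjustment over all genes, 6 of 37 passed an adjusted p of 0.05, which is 16.2% of them against 9.64% of all genes. Of these 4 were higher (10.8%, against 4.98% of all genes) and 2 lower (5.41%, against 4.66%). In 14 of the 37 (37.8%) the blastema arrays did not overlap the uninjured arrays, against 21.0% of all genes. They were 10 genes with every blastema array above (27.0%, against 10.4% of all genes) and 4 with every blastema array below (10.8%, against 10.6%). The median log2 fold change was 0.02, with -0.01 over all genes. Without blastema array 2 or 3, or uninjured array 3 or 4, the higher genes numbered 1 in each case, and without blastema array 1 there were 7 higher and 4 lower. The lower genes numbered 1 without blastema array 2 or uninjured array 2, 3 or 4, and 0 without blastema array 3.

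**Figure D1:**
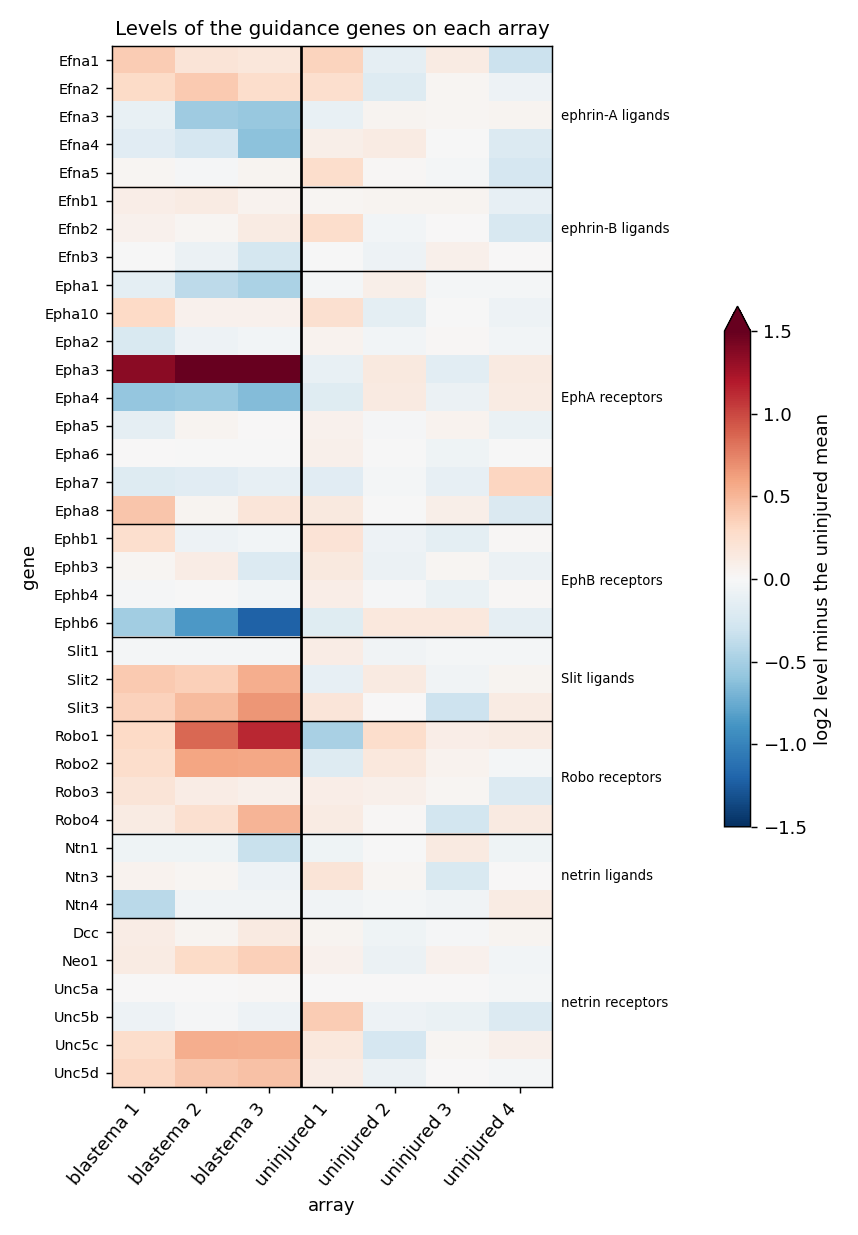
Log2 level of each of the 37 genes (rows, by family) on each array (columns), as the difference from the mean of the 4 uninjured arrays. Red is higher and blue lower, with colours saturating at 1.5 above or below. Epha3 is the darkest red row in the 3 blastema columns. Ephb6 is the darkest blue in the columns of blastema arrays 2 and 3, and Epha4 in that of blastema array 1. Most ephrin and netrin rows stay pale.

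Scaling each array to 11 commonly used scaling genes, in place of the deposited normalization, moved the median fold change of all genes to -0.24. Of the scaling genes 3 rose and 1 fell themselves, and their mean log2 fold change was 0.23. This scaling left 694 genes higher and 4771 lower, against 1105 and 1034 as deposited, and 1 higher and 9 lower among the 37. Epha3 stayed higher by it and Epha4 and Ephb6 stayed lower. The 7 genes it added as lower were the ephrin-A ligands Efna3 and Efna4, the EphA receptors Epha1, Epha2 and Epha7, and the netrins Ntn1 (adjusted p = 0.0469) and Ntn4 (0.0258). Slit2, Robo2 and Unc5d kept positive fold changes of 0.20, 0.25 and 0.16 and did not pass. Every fold change below is therefore relative to the bulk of genes on the array.

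Promoter sequence is shown for the called genes that have a single listed start. The receptor with the largest rise, the Slit that rose and both Eph receptors that fell can thus be read beside each other. Unc5d, also called, had no window in the source used here. The windows run from 250 bases before to 50 after the start, 5′ to 3′ on the gene's strand, from RefSeq on GRCm38.p6. They lie at chr16:63864126-63864425 (Epha3, minus strand), chr5:47982905-47983204 (Slit2, plus strand), chr1:77515039-77515338 (Epha4, minus strand) and chr6:41605261-41605560 (Ephb6, plus strand). Capitals mark matches, on either strand, to 4 motifs: the GC box GGGCGG, the TATA box TATAAA, the AP-1 motif TGANTCA and the RUNX core TGTGGT.
Epha3 promoter: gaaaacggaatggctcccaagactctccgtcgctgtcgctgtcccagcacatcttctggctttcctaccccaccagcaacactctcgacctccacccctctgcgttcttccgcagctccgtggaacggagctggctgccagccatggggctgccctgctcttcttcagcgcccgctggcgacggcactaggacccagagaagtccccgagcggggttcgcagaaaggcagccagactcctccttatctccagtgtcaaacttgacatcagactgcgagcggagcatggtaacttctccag
Slit2 promoter: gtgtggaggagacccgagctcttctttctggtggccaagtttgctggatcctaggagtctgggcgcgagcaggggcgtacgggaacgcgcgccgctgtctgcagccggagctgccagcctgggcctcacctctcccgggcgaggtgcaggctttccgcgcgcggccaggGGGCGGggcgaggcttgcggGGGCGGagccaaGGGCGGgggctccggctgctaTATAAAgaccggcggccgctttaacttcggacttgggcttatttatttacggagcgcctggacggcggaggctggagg
Epha4 promoter: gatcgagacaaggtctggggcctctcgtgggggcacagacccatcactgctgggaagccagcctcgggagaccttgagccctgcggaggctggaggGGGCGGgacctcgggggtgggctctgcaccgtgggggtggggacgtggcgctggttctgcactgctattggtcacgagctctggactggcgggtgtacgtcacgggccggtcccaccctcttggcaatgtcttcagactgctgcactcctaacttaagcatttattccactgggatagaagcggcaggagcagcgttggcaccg
Ephb6 promoter: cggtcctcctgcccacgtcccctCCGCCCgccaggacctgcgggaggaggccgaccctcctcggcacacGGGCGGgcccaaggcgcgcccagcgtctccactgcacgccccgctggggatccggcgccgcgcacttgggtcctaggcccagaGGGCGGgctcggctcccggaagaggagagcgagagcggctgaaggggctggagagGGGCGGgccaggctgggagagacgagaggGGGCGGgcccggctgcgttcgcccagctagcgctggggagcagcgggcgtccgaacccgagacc
The Ephb6 window holds 5 GC boxes, the Slit2 window 3 GC boxes and 1 TATA box, the Epha4 window 1 GC box and the Epha3 window none of the 4 motifs. GC boxes occur in 35.7% of the 32851 windows of the table, TATA boxes in 13.6%, AP-1 motifs in 7.81% and RUNX cores in 16.8%. GC content was 60.7% for Epha3, 68.0% for Slit2, 64.0% for Epha4 and 76.3% for Ephb6, with a median of 52.7% over all windows. Of the 37 genes 32 had at least 1 window, 37 windows in all, and their median GC content was 65.0%. The 3 windows of Robo2, one for each listed start, held none of the 4 motifs, at a GC content of 45.0% to 65.0%.

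Ephrin-A ligands, the surface-anchored partners of EphA receptors, gave no call in either direction among 5 measured in the main fit on the deposited scale. Under the scaling genes 2 were called lower, Efna3 and Efna4. With array weights, an alternative on the deposited scale, Efna2 was called higher (adjusted p = 0.0409) and Efna3 lower (0.0201). Efna3 was also called lower among only the genes above the background line (0.0461). Efna3 lay at 9.31, 8.90 and 8.86 on the blastema arrays, against 9.31, 9.47, 9.46 and 9.47 on the uninjured arrays, a log2 fold change of -0.41 ± 0.12 (SE, adjusted p = 0.0812). Blastema array 1 had the same level as uninjured array 1, and blastema arrays 2 and 3 lay below every uninjured array. Without blastema array 1 the adjusted p was 0.00997, and without both arrays numbered 1 it was 0.0104. Efna4, whose product likewise binds EphA receptors, averaged 7.76 ± 0.24 in blastema and 8.10 ± 0.15 in uninjured digit (SD, n = 3 and 4, adjusted p = 0.156). Efna2 went the other way, at 6.90, 7.01 and 6.88 in blastema against 6.86, 6.42, 6.64 and 6.54 in uninjured digit (0.32 ± 0.11 SE, adjusted p = 0.123). Its groups were parted by only 0.018, and without uninjured array 1 its adjusted p was 0.0338. Efna1, the ephrin first described as an inflammation-induced gene of endothelial cells, averaged 8.52 ± 0.11 in blastema and 8.27 ± 0.29 in uninjured digit (adjusted p = 0.38). Efna5, a repellent of axons in the visual system, differed by 0.02, with a 95% interval of -0.25 to 0.29.

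Ephrin-B ligands, which span the membrane and can signal into the cell that carries them, gave no call among 3 measured. Efnb2, the arterial partner of the venous receptor Ephb4, lay at 8.77, 8.74 and 8.83 in blastema against 8.97, 8.66, 8.71 and 8.46 in uninjured digit. All 3 blastema arrays fell inside the uninjured range, and the difference was 0.08 (95% interval -0.19 to 0.34, adjusted p = 0.731). Efnb1, mutated in human craniofrontonasal syndrome, lay at 7.96, 7.98 and 7.91 in blastema against 7.89, 7.90, 7.90 and 7.73 in uninjured digit. Its groups did not overlap, but by a margin of only 0.0071, and the difference of 0.09 did not pass (adjusted p = 0.437). Efnb3, known from the midline of the nervous system, differed by -0.12 (interval -0.30 to 0.06). On the deposited scale these intervals, each for a single gene, reached no further than 0.34 in either direction, given the spread of these arrays. Under the scaling genes all 3 differences were negative, with Efnb3 at -0.35 (adjusted p = 0.0621).

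EphA receptors held both the largest rise and 1 of the 2 falls. Epha3, an ephrin-A receptor known from developing mesenchyme and from tumour stroma, lay at 6.55, 7.34 and 7.56 in blastema against 5.08, 5.34, 5.03 and 5.33 in uninjured digit. Every blastema array was at least 1.21 above every uninjured array. All 4 uninjured arrays were under the background line of 5.52 and all 3 blastema arrays above it. The fitted log2 fold change was 1.95 ± 0.23 (SE, adjusted p = 0.00418), with an interval of 1.41 to 2.49. With the uninjured arrays counted at that line the difference was 1.63. Epha3 passed in all 17 alternative settings, with fold changes of 1.72 to 2.25 and adjusted p up to 0.0423. Markers of several other cell types were higher in the same arrays. The mean level of 11 fibroblast and mesenchyme markers was 8.87 to 9.45 in blastema and 7.28 to 8.09 in uninjured digit, with 6 called higher and 0 lower. That of 10 osteoblast markers was 9.18 to 9.56 in blastema and 6.34 to 7.15 in uninjured digit, with 9 called higher and 0 lower. That of 10 osteoclast markers was 7.23 to 7.90 in blastema and 5.83 to 5.98 in uninjured digit, again with 9 called higher and 0 lower. Of 11 chondrocyte markers 5 were called higher (means of 6.996 to 7.225 in blastema, 5.736 to 6.354 in uninjured digit), as were 4 of 10 macrophage markers (6.44 to 6.84 in blastema, 6.03 to 6.24 in uninjured digit). In each of these 5 lists and in Epha3, blastema array 1 was the lowest of the 3 blastema arrays. This order is not particular to them, since blastema array 1 lay nearest to the uninjured mean in 60.6% of all 2139 genes called. The part of cell makeup in the rise of Epha3 was not tested.

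Epha4, which binds both ephrin classes and is best known from motor axon choice in the limb, fell. Its level was 8.059, 8.081 and 7.997 in blastema, against 8.463, 8.782, 8.557 and 8.771 in uninjured digit. The blastema arrays lay close together and below every uninjured array. The log2 fold change was -0.60 ± 0.09 (SE, adjusted p = 0.01), and without blastema array 3 it was -0.57 with an adjusted p of 0.0528. Epha1, an epithelial Eph receptor, lay at 8.87, 8.63 and 8.55 in blastema against 8.99 to 9.11 on the 4 uninjured arrays. All its blastema arrays were below the uninjured arrays, but the fold change of -0.34 ± 0.09 did not pass (adjusted p = 0.0545, and 0.0148 without blastema array 1). Epha1 passed in 8 of the 17 alternative settings, and that omission was the only 1 of the 7 omissions of 1 array among them. Epha2, another receptor of epithelia, differed by -0.12 and did not pass, although its blastema arrays all lay narrowly below the uninjured ones (adjusted p = 0.336). Epha7 (-0.16), Epha8 (0.21) and the kinase-deficient Epha10 (0.14) did not pass, with adjusted p of 0.452, 0.325 and 0.476. Epha5 and Epha6, receptors of the nervous system, stayed under the background line on all 7 arrays.

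Of 4 EphB receptors measured 1 fell and none rose. Ephb6, an Eph receptor without kinase activity, lay at 7.95, 7.62 and 7.26 in blastema, against 8.29, 8.64, 8.63 and 8.34 in uninjured digit. No blastema array reached the lowest uninjured array, and blastema array 3 lay farthest below. The log2 fold change was -0.87 ± 0.17 (SE, adjusted p = 0.023). It ranged from -1.10 to -0.69 over the 17 settings. The call of Ephb6 was lost when blastema array 2 (adjusted p = 0.0856) or blastema array 3 (0.0709) was omitted, and likewise when uninjured array 2, 3 or 4 was (0.0717, 0.0719 and 0.0527). Ephb4, the venous receptor of ephrin-B2, lay at 7.019, 7.027 and 6.995 in blastema against 7.135, 7.013, 6.939 and 7.053 in uninjured digit, a difference of -0.02 (interval -0.17 to 0.13). Ephb3 differed by -0.02 (interval -0.26 to 0.21). Ephb1 differed by 0.04 on its brighter probe set and by -0.12 on its other one, and neither passed (adjusted p = 0.853, and 0.365 over all probe sets).

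Markers of differentiated keratinocytes were lower in the same arrays as Epha4 and Ephb6. The mean level of 13 markers of differentiated keratinocytes was 9.72 to 9.96 in blastema and 10.68 to 11.03 in uninjured digit. Of these 8 fell and 0 rose, led by Krt9 (-4.11) and Krt2 (-2.69), and none was under the background line in both groups. The mean level of 8 basal keratinocyte markers was 9.33 to 9.58 in blastema and 9.60 to 9.70 in uninjured digit, with 1 lower, Krt15 (-2.30), and 0 higher. Without Krt15 the mean of the other 7 was 9.92 to 10.04 in blastema and 9.79 to 10.05 in uninjured digit, with 5 of the 7 positive. Of 9 sweat gland markers 2 were called lower and 0 higher, all 9 differences were negative, and the mean level was 6.26 to 6.31 in blastema and 6.39 to 7.02 in uninjured digit. The part of these cell types in the lower levels of Epha4 and Ephb6 was not tested.

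**Figure D2:**
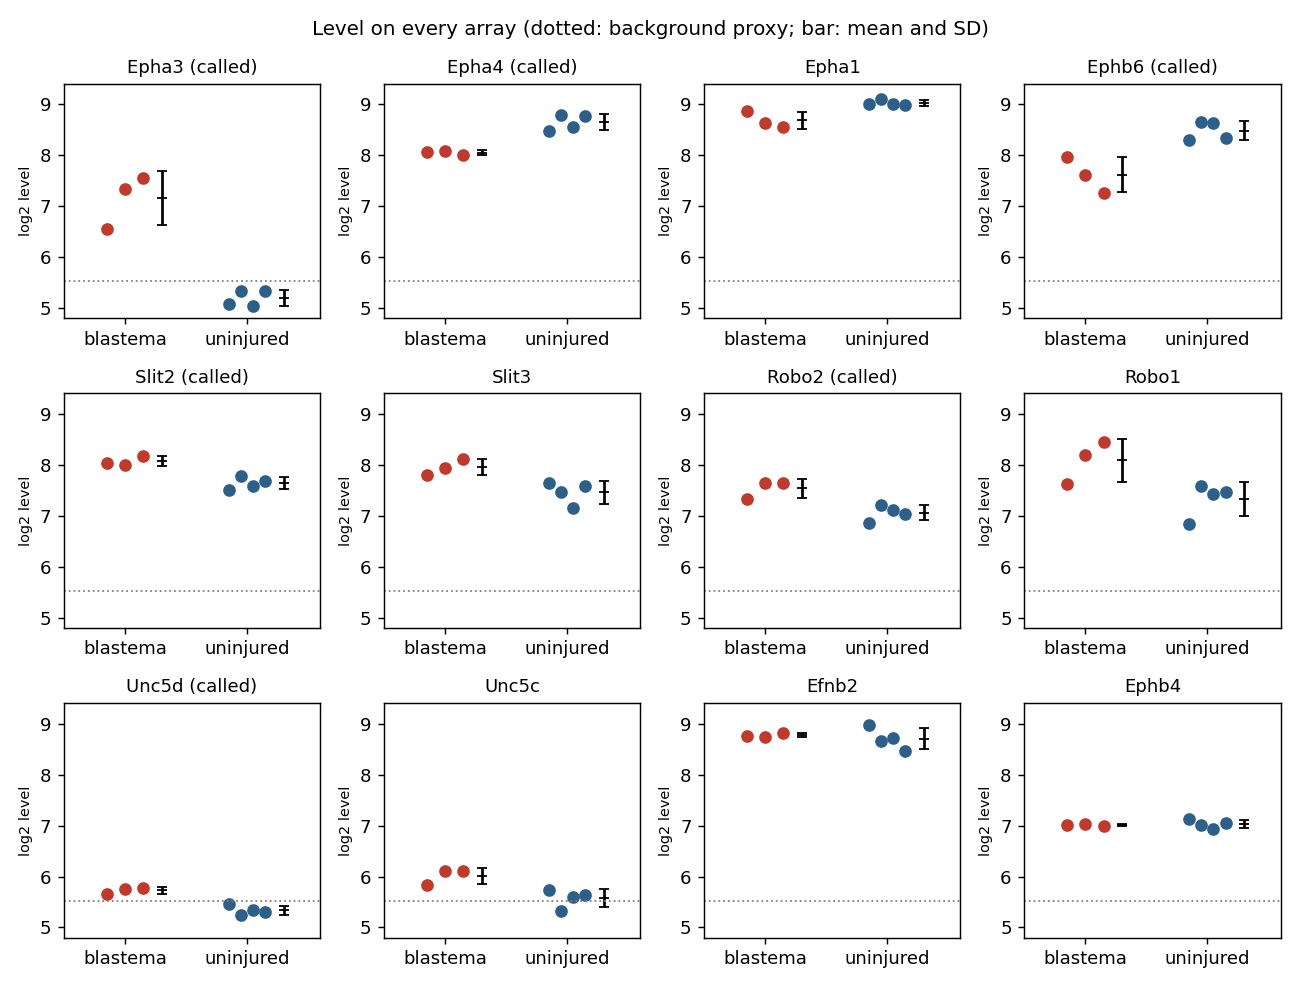
Log2 level of 12 guidance genes on each array (points), blastema (n = 3) left and uninjured digit (n = 4) right, with the mean and SD beside them and the background line of 5.52 dotted. The groups do not overlap for Epha3, Epha4, Epha1, Ephb6, Slit2, Slit3, Robo2, Robo1, Unc5d and Unc5c, and they overlap for Efnb2 and Ephb4.

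Of 3 Slit ligands 1 passed the test, and of 4 Robo receptors likewise 1, both as higher (0 of each under the scaling genes). Slit2, the secreted repellent that binds Robo receptors, lay at 8.03, 7.99 and 8.18 in blastema against 7.51, 7.78, 7.58 and 7.68 in uninjured digit. Every blastema array was above every uninjured array, and the log2 fold change was 0.43 ± 0.09 (SE, adjusted p = 0.0231). The call was lost when blastema array 2 (adjusted p = 0.0608) or blastema array 3 (0.0891), uninjured array 3 or 4 (0.0693 and 0.0552) or both arrays numbered 1 (0.0669) were omitted. Slit3, known from stromal cells and bone-forming cells, lay at 7.81, 7.94 and 8.12 in blastema against 7.63, 7.47, 7.15 and 7.58 in uninjured digit. Its groups did not overlap either, and its fold change of 0.50 ± 0.13 did not pass (adjusted p = 0.0619). Slit3 passed in 3 of the 17 alternative settings and in none of the 7 omissions of 1 array. Slit1, a Slit of the nervous system, had mean levels of 5.44 in blastema and 5.47 in uninjured digit, both under the background line.

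Robo2, a Slit receptor of axons and kidney, lay at 7.32, 7.65 and 7.64 in blastema against 6.87, 7.21, 7.11 and 7.03 in uninjured digit. The lowest blastema array was 0.11 above the highest uninjured array, and the log2 fold change was 0.48 ± 0.11 (SE, adjusted p = 0.0417). Robo2 passed without blastema array 1 (adjusted p = 0.0235) and in none of the other omissions of 1 array (0.0599 to 0.154). Robo1, the broadly expressed Slit receptor, had the largest difference of the 4 Robo genes at 0.76 ± 0.24 but did not pass (adjusted p = 0.0992). Its levels were 7.62, 8.19 and 8.45 in blastema against 6.84, 7.59, 7.42 and 7.46 in uninjured digit. Blastema array 1 and uninjured array 1 were the lowest of their groups, the groups were parted by only 0.031, and without both arrays numbered 1 the adjusted p was 0.0203. Without blastema array 1 alone it was 0.0434.

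Robo4, the Robo receptor of endothelial cells, lay at 5.88, 5.98 and 6.26 in blastema against 5.88, 5.77, 5.47 and 5.88 in uninjured digit. The groups overlapped, and the difference of 0.29 did not pass (adjusted p = 0.225). The 13 endothelial markers had mean levels of 6.68 to 7.12 in blastema and 6.09 to 6.54 in uninjured digit, with 4 higher and 0 lower and 1 under the background line in both groups. The 12 pericyte and smooth muscle markers had mean levels of 7.40 to 7.81 in blastema and 6.67 to 7.36 in uninjured digit, with 4 higher and 0 lower. Among vessel genes, Cdh5, the cadherin of endothelial junctions, rose by 1.28 (adjusted p = 0.0235), beside the differences of 0.08 for Efnb2 and -0.02 for Ephb4. Robo3, a receptor of commissural axons, stayed under the background line on all arrays.

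Netrin ligands gave no call among 3 measured on the deposited scale, and under the scaling genes Ntn1 and Ntn4 were called lower. Ntn1, the diffusible cue that gave the family its model, lay at 6.20, 6.20 and 5.93 in blastema against 6.20, 6.26, 6.40 and 6.20 in uninjured digit. Its blastema and uninjured arrays overlapped (difference -0.15, 95% interval -0.37 to 0.06). Ntn4, a netrin of basement membranes, lay at 5.61, 5.97 and 5.97 in blastema against 5.97, 5.99, 5.97 and 6.14 in uninjured digit (difference -0.17, interval -0.41 to 0.08). Ntn3 had a mean of 5.05 in each group, under the background line.

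Among netrin receptors 1 of 6 rose. Unc5d, a receptor that mediates netrin repulsion and binds FLRT proteins, lay at 5.65, 5.75 and 5.78 in blastema against 5.46, 5.25, 5.35 and 5.31 in uninjured digit. The groups did not overlap, and they lay on opposite sides of the background line. The fitted log2 fold change was 0.39 ± 0.07 (SE, adjusted p = 0.0174), against 0.21 with the uninjured arrays counted at the line. The adjusted p was 0.0691 and 0.0742 without blastema array 2 or 3, and 0.0511 and 0.0508 without uninjured array 3 or 4. Unc5c, a relative with the same ligands, lay at 5.84, 6.11 and 6.11 in blastema against 5.73, 5.32, 5.60 and 5.64 in uninjured digit. It differed by 0.45 ± 0.12 with no overlap and did not pass (adjusted p = 0.0587, and 0.045 without blastema array 1). In 5 of the 17 alternative settings it passed. Unc5c lay above the background line on 3 of 4 uninjured arrays and on all blastema arrays.

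Neo1, neogenin, which binds netrins and repulsive guidance molecules, lay at 8.97, 9.14 and 9.20 in blastema against 8.91, 8.76, 8.91 and 8.81 in uninjured digit. The blastema arrays lay above the uninjured arrays by at least 0.06, and the difference of 0.26 ± 0.08 did not pass (adjusted p = 0.0906, and 0.0441 without blastema array 1). Unc5b, a receptor of endothelial tip cells, differed by -0.06 (interval -0.38 to 0.27). Dcc, the netrin receptor of axons, and Unc5a stayed under the background line on all 7 arrays.

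**Figure D3:**
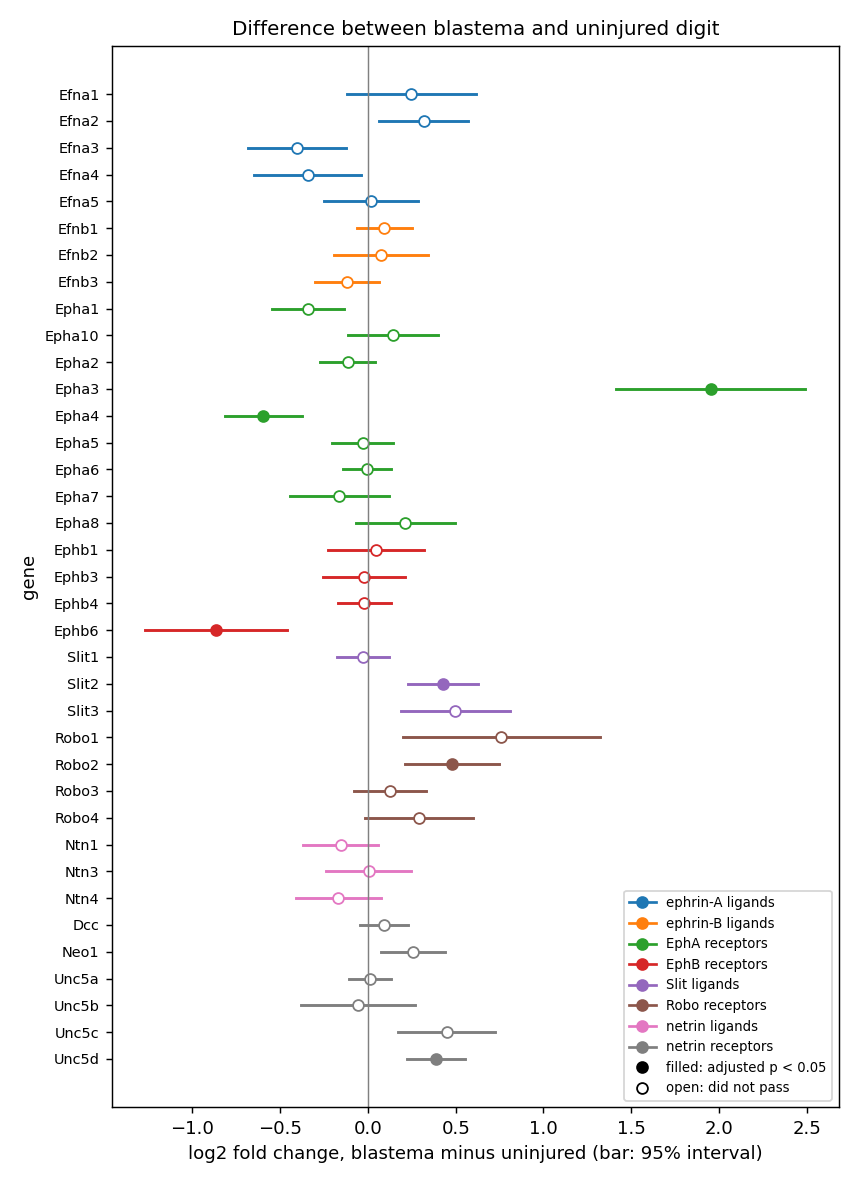
Log2 fold change, blastema minus uninjured, of each of the 37 genes with its 95% interval from limma, coloured by family. Filled points mark the 6 genes with adjusted p under 0.05, and the Epha3 point at 1.95 stands alone to the right.

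Probe sets differ in brightness, so the background line is only a rough guide to whether a gene was detected. Of the 37 genes 7 had means under the background line in both groups, namely Epha5, Epha6, Slit1, Robo3, Ntn3, Dcc and Unc5a. None of these passed the test, and their fold changes ran from -0.03 to 0.12. Of 12 neuron and axon markers 8 had means under the line in both groups, and the mean level of the list was 5.32 to 5.36 in blastema and 5.29 to 5.40 in uninjured digit. Of the 12, 0 were higher and 1 lower, the tubulin gene Tubb3 (-0.54, adjusted p = 0.0214). The 9 Schwann cell markers had mean levels of 6.26 to 6.29 in blastema and 6.27 to 6.39 in uninjured digit, with 0 higher and 1 lower, the neuregulin receptor gene Erbb3 (-0.59).

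Calls were also made among other guidance genes. Of 31 semaphorin, plexin and neuropilin genes 4 passed as higher (12.9%, against 4.98% of all genes) and 0 as lower, and the median over the 31 was 0.07. Plxnd1, a plexin of vessels that binds Sema3e, rose by 1.30 ± 0.16 (SE), and Nrp2, a co-receptor of semaphorins and of lymphatic growth factors, by 1.06 ± 0.18. Sema6d (0.70) and Plxnc1 (0.67), named after their values were seen, were the others. All 4 uninjured arrays and blastema array 1 lay under the background line for Plxnc1. Its rise was 0.15 with the uninjured arrays counted at that line. Plxnd1 and Sema6d passed in all 7 omissions of 1 array, Nrp2 in 4 (not without blastema array 2 or 3 or uninjured array 2, adjusted p up to 0.0715) and Plxnc1 in 1, without blastema array 1 (up to 0.128). The count was 2 without blastema array 2 or 3 or uninjured array 2, and 6 without blastema array 1. With the replicate number as a block, 0 of the 31 passed (adjusted p = 0.0558 for Plxnd1 and 0.0515 for Sema6d). Scaling to the scaling genes left 3 higher and 6 lower and moved the median to -0.16.

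Of 14 other ligands and co-receptors that bind the Slit, netrin or Unc5 proteins or their partners, 4 rose and 0 fell (median 0.11). The higher genes were 28.6% of them, against 4.98% of all genes, while 4.66% of all genes were lower. The higher genes numbered 3 with all probe sets averaged and 3 with the replicate block. They likewise numbered 3 without blastema array 2 or 3 or uninjured array 1, 2 or 3. Sdc3, a heparan sulphate proteoglycan of the cell surface, rose by 1.44 ± 0.11 (SE, adjusted p = 0.00136). It lay at 8.59, 8.90 and 9.02 in blastema against 7.40, 7.50, 7.36 and 7.32 in uninjured digit, with no overlap, and passed in all 17 settings. Flrt2, a transmembrane ligand of Unc5d, rose by 1.12 ± 0.22 (adjusted p = 0.0223) and passed in 2 of the 7 omissions of 1 array, without blastema array 1 or uninjured array 4 (adjusted p of the 7 from 0.0323 to 0.0796). The latrophilin gene Adgrl1 (0.67) and the glypican gene Gpc1 (0.65) rose too and were named after their values were seen, but Gpc1 differed by only 0.33 and did not pass when all its probe sets were averaged (adjusted p = 0.0601). Scaling to the scaling genes left 4 higher and 1 lower, with a median of -0.12.

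Of 42 cytoplasmic proteins that act below Eph, Robo or netrin receptors, 3 rose and 2 fell (median 0.10), which is 7.14% and 4.76% of them, near the 4.98% and 4.66% of all genes. Dpysl2, a collapsin response mediator that binds tubulin, rose by 1.18 ± 0.22 (SE). Chn1, a Rac-inactivating protein that acts below Epha4, rose by a fitted 0.98 ± 0.16. All uninjured arrays lay under the background line for Chn1, and its rise was 0.34 with them counted at that line. Pdlim7, a PDZ and LIM domain protein, rose by 0.89. The exchange factors Vav3 (-0.60) and Tiam1 (-0.46) fell, and these 3 last genes were named after their values were seen. Over the 7 omissions of 1 array, Pdlim7 passed in 7, Chn1 and Tiam1 in 5 (not without blastema array 2 or 3), Dpysl2 in 4 (nor without uninjured array 3) and Vav3 in 1, without uninjured array 1. With all probe sets averaged Chn1 differed by 0.49 and still passed. Without blastema array 2 or 3 there was 1 higher gene and 0 lower, without blastema array 1 there were 5 and 2, and without both arrays numbered 1 there were 6 and 2. Without uninjured array 2, 3 or 4 there was 1 lower. The replicate block gave 2 higher and 0 lower. Scaling to the scaling genes gave 3 higher and 6 lower, with a median of -0.13.

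**Figure D4:**
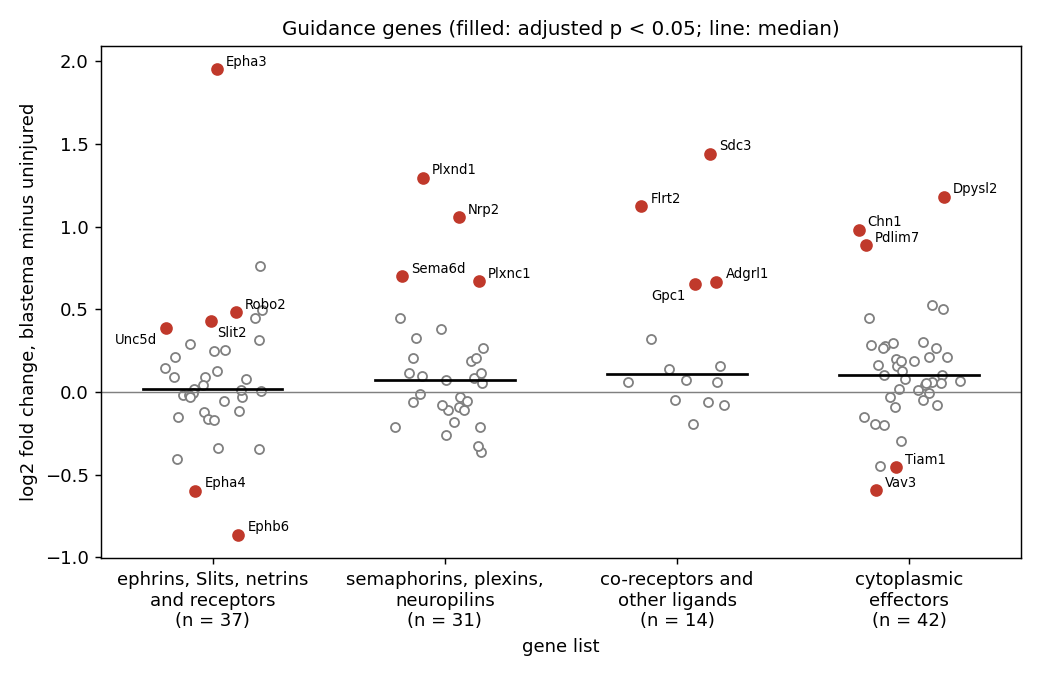
Log2 fold change, blastema minus uninjured, of each gene (points) in the ephrin, Slit and netrin families and in 3 lists of other guidance genes, with the median as a line. Filled and named points passed an adjusted p of 0.05. Epha3 at 1.95, Sdc3 at 1.44 and Plxnd1 at 1.30 lie highest.

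Blastema array 1 lay nearest to the uninjured mean in 9 of the 14 guidance genes whose groups did not overlap (64.3%), against 54.4% of all 4650 such genes. Blastema array 2 was nearest in 2 and blastema array 3 in 3. Robo1, Neo1, Unc5c, Epha1 and Efna3 passed once blastema array 1 was omitted, as given above for each. With array weights, another of the alternative settings, these genes passed too (adjusted p = 0.0201 to 0.0413).

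**Figure D5:**
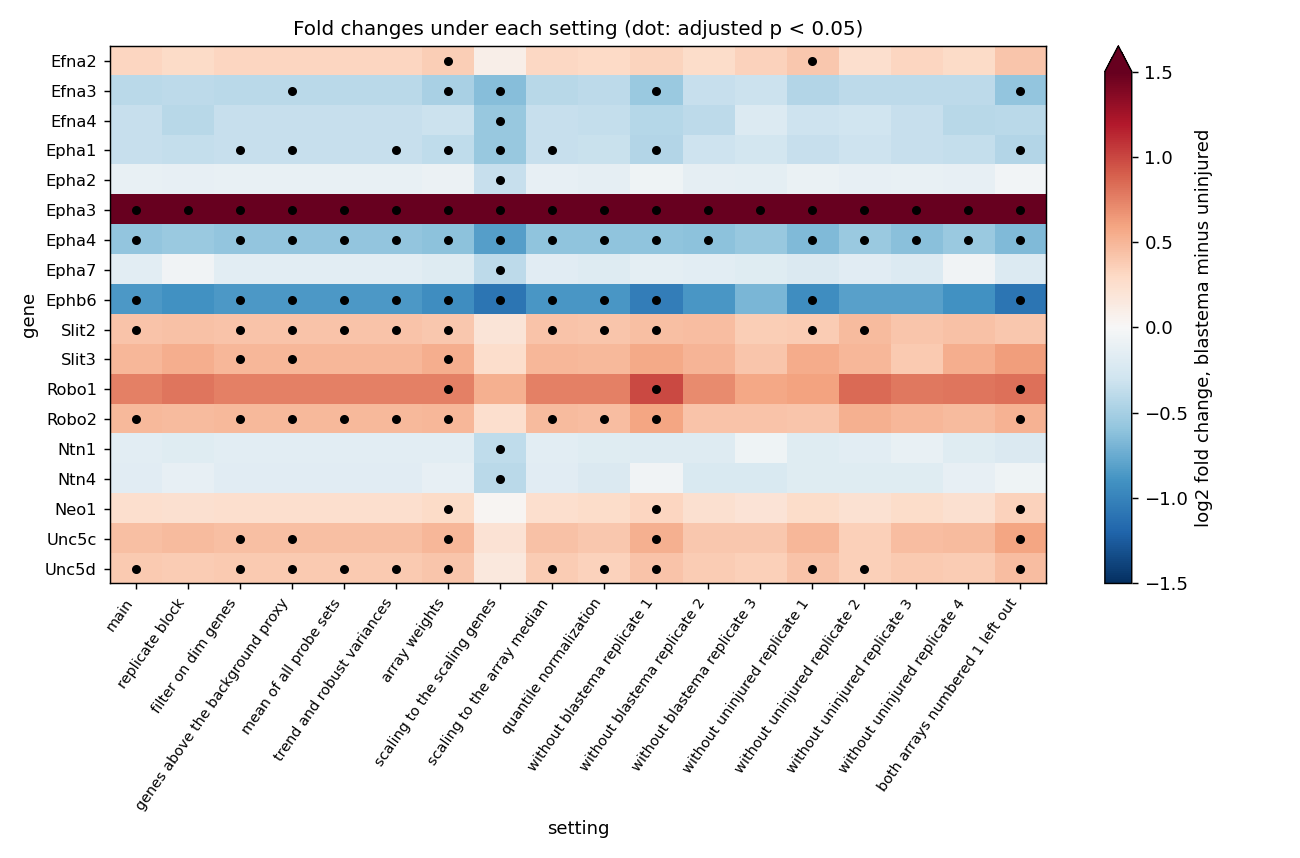
Log2 fold change of the 18 guidance genes that passed in at least 1 setting (rows), as reported and under 17 alternative settings (columns), with a dot where the adjusted p was under 0.05. The Epha3 row has a dot in every column, and the column scaled to the scaling genes is shifted towards blue.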

How the data were processed

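Per the labels, 400 ng of RNA per sample was labelled for 1-colour arrays. The log2 values that were deposited came from RMA in the R package oligo, per the submitters' processing notes, so they were background-corrected, normalized between arrays and summarised by the authors. A global difference in RNA content would not show in them. Not given in the sources used here: tool versions and the array design.

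Of 41345 probe sets 23521 listed exactly 1 gene symbol. The brightest probe set over the 7 arrays stood for a gene, which gave 22180 genes. Only Ephb1 among the 37 had a second. All 37 matched a RefSeq entry by Entrez number under the same symbol.

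Blastema was tested against uninjured digit with limma 3.58.1 (R 4.3.3; lmFit, eBayes, default settings, no covariate), two-sided, with Benjamini-Hochberg adjustment over all 22180 genes. Intervals are 95% for single genes. The fit was tested on simulated data with 50 genes changed at each size. It recovered 17 of them at a log2 difference of 0.5, 41 at 1, 49 at 2 and 50 at 3. A gene that did not pass may therefore still differ by such small amounts. The simulation changed only 200 of the 22180 genes, while 2139 were called in the data. Its adjustment was therefore stricter, and the recovered counts can be lower than those for the data. Genes named from other lists are the 2 called with the largest change, except where stated. This rule does not cover Krt14, Krt10 and Hoxd13, which were given for their levels only. The members and lists were chosen with earlier results of these data known. Motifs were counted in RefSeq promoter windows. The alternatives were the replicate block, a dim filter at the 30th percentile, the background line as a filter, the mean of probe sets, trend and robust variances, array weights, 3 scalings, omission of each array, and omission of both arrays numbered 1. Same-numbered arrays did not deviate together in every pair (r = 0.27, 0.17 and -0.02 for numbers 1, 2 and 3), so the numbers were not taken to pair the samples.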

Additional observations from a re-analysis of the deposited data

Results flagged for a closer look

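In 6 of the 37 genes 1 of the 4 uninjured arrays lay far from the others, by the ratio of its gap to the whole range (16.2%, against 17.5% of all 22180 genes). Chance flags about 1 in 20 groups of continuous values, but equal levels raise the ratio, and 4 of the 6 (Efnb1, Ntn4, Slit1 and Unc5a) had equal uninjured arrays. Of the 15767 genes without equal uninjured arrays 6.94% passed the same ratio. The ratio was 0.906 for Efna3, with uninjured array 1 low (9.31, against 9.46 to 9.47). It was 0.931 for Efnb1, with array 4 low (7.73, against 7.89 to 7.90), and 0.914 for Epha1, with array 2 high (9.1075, against 8.9897 to 8.9998). It was 0.848 for Ntn4, with array 4 high (6.14, against 5.97 to 5.99), and 0.853 for Slit1, with array 1 high (5.59, against 5.42 to 5.44). For Unc5a it was 1, because arrays 1, 2 and 3 held exactly the same level (5.46) and array 4 lay at 5.42.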

How the results depend on the processing

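Epha3 passed in all 17 alternatives, and no called gene changed direction in any. Of 618 values of single genes under the alternatives, 515 kept their direction and side of the threshold, 29 lost a call, 34 gained one and 40, in 16 uncalled genes, changed sign. The genes called numbered 2139 in the fit reported. They numbered 845 to 2295 when 1 array was omitted, with 1 to 7 guidance genes higher and 0 to 4 lower, 599 with the replicate block (1 higher, 0 lower), where uninjured array 4 has no partner and drops out, and 5465 with the scaling genes (1 higher, 9 lower). Array weights gave 9 guidance genes higher and 4 lower, and 4 were lower above the background line and without both arrays numbered 1. With the block, Slit2, Robo2, Unc5d, Epha4 and Ephb6 lost their calls (adjusted p = 0.094, 0.052, 0.0984, 0.0571 and 0.102). The samples share only a number: blastema arrays 1 and 2 deviated most like the uninjured array of their own number (r = 0.27 and 0.17), and blastema array 3 did not (-0.02, against 0.16 with uninjured array 2). Sign changes under the scaling genes were Dcc -0.14, Efna5 -0.21, Efnb1 -0.14, Efnb2 -0.16, Epha10 -0.0877, Epha8 -0.0171, Ephb1 -0.19, Ntn3 -0.23, Robo3 -0.11 and Unc5a -0.22. With array weights they were Epha5 0.00877, Epha6 0.00594, Ephb3 0.0205 and Unc5b 0.0198. Without both arrays numbered 1 they were Epha5 0.0450, Epha6 0.0163, Ephb3 0.00143, Ephb4 0.00958, Slit1 0.00826 and Unc5b 0.0803. The block gave Efna5 -0.0650 and Efnb2 -0.00366, quantile normalization Ntn3 -0.0192 and Unc5a -0.0143, median scaling Ntn3 -0.00241, and the mean of probe sets Ephb1 -0.0358. Over the omissions of 1 array the fold change ran from -0.0650 to 0.105 for Efna5, -0.00366 to 0.163 for Efnb2, -0.0679 to 0.0222 for Epha5, -0.0258 to 0.0208 for Epha6, -0.0625 to 0.113 for Ephb1, -0.0881 to 0.0735 for Ephb3, -0.0533 to 0.0121 for Ephb4, -0.0733 to 0.0685 for Ntn3, -0.0480 to 0.00826 for Slit1 and -0.126 to 0.0714 for Unc5b. The omission of arrays leaves fewer samples, and the cause of the other changes was not tested. Levels near the background line of 5.52 limit what can be said of the 7 genes under it.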

Other observations

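Exactly equal levels on different arrays were common in the deposited table. They occurred in 18479 of 41345 probe sets (44.7%) and in 17 of the 37 guidance genes. Slit1 had the same level, 5.44, on all 3 blastema arrays and 2 uninjured arrays, and Unc5a had 5.46 on 2 blastema and 3 uninjured arrays. Ntn1 (6.20), Ntn4 (5.97) and Epha6 (4.48) each had 1 level shared by 2 blastema and 2 uninjured arrays. Of the 6 genes called, 0 had such equal arrays.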
